A study of Mus musculus with 8 samples.

Results

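Cytosolic ribosomal proteins are the proteins that, with ribosomal RNA, build the large and small subunits of the ribosome in the cytoplasm. Their genes were taken by name: array probes whose gene name starts with Rpl or Rps followed by a digit, without the Rps6k kinases. The name pattern found 153 probes, 21 of them for Rps6k kinases, and left 132 probes for 78 genes. Of these, 77 were among the 17099 genes of the series with a probe above background. By name, 42 are proteins of the large subunit, 30 are proteins of the small subunit, 5 are paralogues of such proteins (Rpl3l, Rpl7l1, Rpl22l1, Rpl36al and Rps27l), and Rps19bp1 encodes a binding partner of Rps19 that is no ribosomal protein.

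RNA came from whole mouse embryos at embryonic day 9.0, as 4 wild-type pools and 4 pools of Arid3b-null embryos with 3 to 4 embryos each. Arid3b is a DNA-binding protein of the ARID family. Each pool was hybridised to 1 one-colour Agilent array. The strain, the allele and the part of Arid3b it removes are not given in the sources used here. Slide 1 held pools 1 and 2 of both groups and slide 2 held pools 3 and 4, with wild-type and null samples in different positions, so position and genotype cannot be told apart.

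Ribosomal proteins are made in matched amounts, because a subunit that lacks 1 component is not finished, and unused copies are degraded. In mammals most of their transcripts start with a run of C and T bases, the 5′ terminal oligopyrimidine (TOP) tract, through which mTORC1 signalling controls their translation. Mutations in single members cause anaemia, skeletal or pigment defects in people and mice, and free Rpl5 and Rpl11 bind Mdm2, the inhibitor of p53. The arrays measure transcript levels and not translation.

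The annotated start sites show how far the members carry such a run. The sequences below are 30 bases from RefSeq (GRCm38.p6), 15 before and 15 from the annotated gene start, printed 5′ to 3′ on the gene's strand, and the capitals mark the longest run of C and T letters that reaches within 5 bases of the start. The first 4 are the subunit proteins with the longest runs. The others are Rpl14, 1 of the 2 subunit proteins with a lower null mean, and the paralogues and Rps19bp1 that the results below turn on.
Rpl7a: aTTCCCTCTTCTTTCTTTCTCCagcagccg
Rpl27a: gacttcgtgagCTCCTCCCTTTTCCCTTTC
Rpl35: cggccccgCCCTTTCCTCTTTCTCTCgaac
Rpl15: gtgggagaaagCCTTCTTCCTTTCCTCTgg
Rpl14: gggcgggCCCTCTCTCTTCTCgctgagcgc
Rpl7l1: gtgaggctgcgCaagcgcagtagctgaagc
Rps19bp1: cagggcggaagtagCTCgccgcgtgtgggc
Rpl22l1: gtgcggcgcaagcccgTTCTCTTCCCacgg
Rps27l: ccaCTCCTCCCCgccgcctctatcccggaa
Rpl36al: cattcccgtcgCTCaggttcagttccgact
Of the 78 members, 59 had a start in the RefSeq table. A run of at least 8 C or T letters was found at 20 of the 53 matched subunit proteins (37.7%) and at 2962 of all 27025 genes in the table (10.96%), so most matched subunit proteins had a shorter run, with a median of 6. It was found at 2 of the 6 matched paralogues and Rps19bp1, which are Rpl22l1 and Rps27l. Rpl7l1 had a single C, and Rps19bp1 and Rpl36al had 3 letters each. A match is a description of these letters at an annotated start and does not locate a used start site.

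Arid3b itself was lower in every null pool: its log2 signal, relative to the array's 75th percentile, was 3.37 ± 0.08 (SD, n = 4) in wild type and 2.02 ± 0.31 (SD, n = 4) in null pools, a difference of -1.35 with a standard error of 0.15 and a limma adjusted p of 0.0058. The share of spots above background ranged over the arrays from 59.9% to 64.1% and the 75th percentile of the signal from 1280 to 1703. A probe was kept when it was well above background on at least 4 of 8 arrays, which left 25555 probes. Of the lists of tissue markers, those of primitive erythroid cells, yolk sac endoderm, heart and neural tube were kept in full (8 of 8, 7 of 7, 5 of 5 and 4 of 4), while 3 of 6 placenta and decidua markers (Tpbpa, Gcm1 and Prl8a2) did not pass the filter. The labels do not say whether pools of a group share litters, so p-values describe the spread between these pools.

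No ribosomal protein gene passed the test between genotypes. Of the 78 genes, 77 had a kept probe, and limma with Benjamini-Hochberg adjustment over all 17099 genes called 0 of the 77 at an adjusted p under 0.05, beside 4.2% of all genes. At an unadjusted p under 0.05 there were 3 members, beside 20.7% of all genes. With the replicate number as a block, which pairs the pools of a number, 3 members passed as higher (Rps19, Rps25 and Rpl22l1) and 1 as lower (Rpl7l1), beside 7.78% and 5.92% of all genes in that fit. In the same blocked fit 25 of 77 members had an unadjusted p under 0.05 (limma), beside 6157 of 17099 genes. These shares of the 77 are below those of all genes. No spot of a member was saturated on any array. Rpl3l, the heart and skeletal muscle paralogue of Rpl3, was the gene left out: it was well above background on 1 null array and on no wild-type array.

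The 77 differences were small, positive for most members and close to each other. The median difference, null minus wild type, was 0.13 on the log2 scale (9.66%), and the mean was higher in null pools for 71 of 77 members, beside 48.7% of all genes. The size depended on the scaling: the median was 0.04 with quantile normalization (64 of 77 with a higher null mean), with median centring (64 of 77) and in the authors' deposited log2 table (55 of 77). It was 0.06 without a shift between arrays (68 of 77) and 0.21 with normexp background correction (73 of 77). With arrays aligned on bright genes outside the members it was 0.12 (71 of 77). The median of all genes moved too, to -0.10 with median centring, -0.08 without a shift and -0.07 with normexp. Relative to the median of all genes, the member median was 0.14 in the main fit, with median centring and without a shift. On that measure it was 0.06 with quantile normalization, 0.05 in the deposited table and 0.28 with normexp. The interquartile range of the members ran from 0.10 to 0.16, whereas that of all genes ran from -0.14 to 0.15 around a median of -0.01. The 95% intervals, reaching a median of 0.26 to each side, excluded 0 for 3 members only (Rpl7l1, Rps19bp1 and Rpl22l1). For 75 of 77 members the whole interval lay within a 1.5-fold difference in either direction. The 2 exceptions, Rps19 and Rpl30, had upper limits of 0.71 and 0.81.

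**Figure D1:**
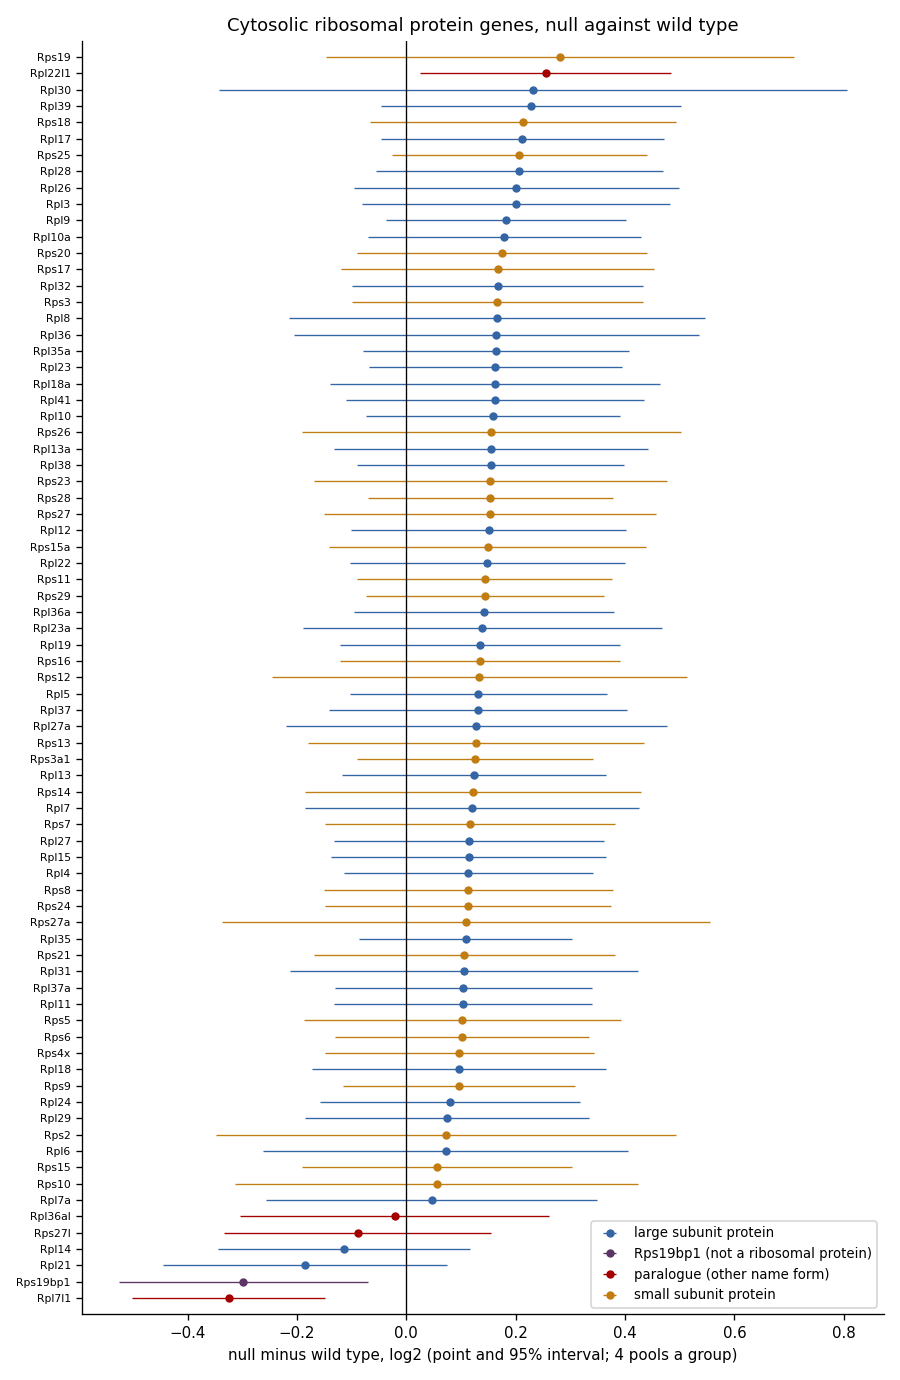
Difference between null and wild type (log2, x axis) for the 77 tested members, ordered by size, with 95% intervals from limma over 4 pools a group and colours for the class of the gene. Most points sit between 0.05 and 0.25, and the 6 points left of 0 are Rpl7l1, Rps19bp1, Rpl21, Rpl14, Rps27l and Rpl36al.

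Both subunits gave nearly the same value. The 42 large subunit genes had a median difference of 0.14, with 40 higher in the null mean, and the 30 small subunit genes had a median of 0.13, with 30 of 30 higher in the null mean. In the authors' deposited table the counts were 32 of 42 and 21 of 30, with medians of 0.04 and 0.03, and with the Y-linked covariate described below 28 of 42 and 21 of 30. In each of these 72 genes the null and wild-type values overlapped. Rpl34, which the array lists under a clone name, differed by 0.19 with an adjusted p of 0.33 (limma).

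Without pairing, the pools did not separate by genotype in this measure. For each pool the deviation of every member from its own mean over the 8 pools was taken, and the median over the 77 members was -0.17, 0.11, -0.18 and -0.005 log2 for wild-type pools 1 to 4. For null pools 1 to 4 the same median was -0.10, 0.21, 0.03 and 0.09. Wild-type pool 2 lay above null pools 1, 3 and 4, and null pool 1 lay below wild-type pools 2 and 4, so the groups overlapped. Compared by pool number, the null pool was the higher in 4 of 4 pairs, by 0.06, 0.10, 0.21 and 0.10. The null mean exceeded the wild-type mean by 0.080 on slide 1 and by 0.155 on slide 2. The spread of these medians within a group (SD 0.14 in wild type and 0.13 in null, n = 4 each) was as large as the difference between the groups, 0.12.

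A pair of other measures differed between the pools and followed these pool medians only in part. The 75th percentile signal used for scaling was 1703, 1339, 1679 and 1487 in wild-type pools 1 to 4 against 1519, 1280, 1565 and 1537 for the null pools in the same order, and the pools with the lowest percentiles, pool 2 of each group, had the highest member medians. Without any shift between arrays the lowest and highest pool medians were -0.06 and 0.008 for wild type, against -0.09 and 0.12 for null. The level of 4 Y-linked genes, relative to the highest pool for each gene, was 0.023, 0.84, 0.28 and 0.026 in wild-type pools and 0.52, 0.87, 0.48 and 1.0 in null pools, and it follows the share of male embryos in a pool. With that level as a covariate the member median was 0.02 in place of 0.13, with 50 of 77 positive. The part of either measure in the difference was not tested otherwise.

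Members followed each other from pool to pool. The correlation of a member with the median of the other 76 over the 8 arrays was above 0.8 for 51 of 77 members, with a median of 0.85 (7 arrays for Rpl7a, which had a flagged spot in null pool 3). This is a description over arrays that share the scaling and the brightness range of these probes. The lowest values belonged to Rpl21 (-0.30), Rpl14 (-0.29), Rpl7l1 (-0.23), Rps19bp1 (0.08) and Rpl30 (0.16). The first 4 of these are also the 4 members with the lowest differences between genotypes. The correlation was taken across both genotypes, so it is not independent of those differences.

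Rpl7l1 had the lowest difference of the 77. It is a paralogue of Rpl7 that takes part in assembly of the large subunit. Its probe (mm7 chr17:44903793-44903852, minus strand) read 3.79, 3.78, 3.67 and 3.63 for wild-type pools 1 to 4, against 3.30, 3.51, 3.41 and 3.36 for the null pools. All 4 null pools were lower than all 4 wild-type pools, an arrangement that 8.06% of all genes showed in this direction. The difference was -0.32 with a standard error of 0.08, and its limma adjusted p of 0.057 missed the threshold. With the replicate number as a block the adjusted p was 0.036, and with the slide as a block also 0.036, in a fit that called 3.3% of all genes lower. A second, dimmer Rpl7l1 probe gave -0.13 with an adjusted p of 0.46 over all probes (limma).

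Rpl7, its partner in the large subunit, read 6.61, 6.84, 6.80 and 7.06 in wild-type pools and 6.69, 6.87, 7.13 and 7.10 in null pools. These values overlapped, the difference was 0.12 with a 95% interval from -0.19 to 0.43, and the 3 Rpl7 probes all had a higher null mean. The difference between the 2 genes was not tested.

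Rps19bp1, also known as Aros, encodes a nucleolar protein that binds Rps19. It read 3.99, 4.28, 4.02 and 4.00 in wild-type pools and 3.62, 3.85, 3.72 and 3.91 in null pools. The groups did not overlap, the difference was -0.30 with a standard error of 0.10, and the limma adjusted p was 0.14. The second probe, in another stretch of the transcript, gave -0.31 with a standard error of 0.10 and an adjusted p of 0.12 over all probes (limma), and 0.040 with the replicate block. With the Y-linked level as covariate the gene passed, at -0.46 with an adjusted p of 0.049 (limma), beside 0.497% of all genes called lower in that fit.

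Rps19 itself, a small subunit protein whose gene is often mutated in Diamond-Blackfan anaemia, had the highest difference of the 77. It read 6.39, 6.77, 6.21 and 6.18 in wild-type pools and 6.75, 7.07, 6.39 and 6.47 in null pools. The groups overlapped, with pools 1 and 2 above pools 3 and 4 in both genotypes. The difference was 0.28 with a standard error of 0.19 and an adjusted p of 0.46 (limma), which became 0.036 with the replicate number as a block. The second kept Rps19 probe gave 0.06 with a standard error of 0.14.

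Rpl22l1 was the only member of the 77 with all null pools above all wild-type pools, an arrangement shown in this direction by 8.08% of all genes. It is the paralogue that can replace Rpl22, an RNA-binding protein of the large subunit. It read 5.97, 6.21, 6.06 and 6.11 in wild-type pools and 6.21, 6.57, 6.27 and 6.32 in null pools. The difference was 0.25 with a standard error of 0.10 and an adjusted p of 0.19 (limma), and 0.043 with the replicate block. The lowest null value, in pool 1, lay just above the highest wild-type value, in pool 2, so the gap between the groups was narrow. A second kept Rpl22l1 probe was dim (mean signal 61), and its groups overlapped. It gave -0.04 with a standard error of 0.24 and an adjusted p of 0.95 (limma over probes).

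Rpl22 itself differed by 0.15 on its brightest probe, with a 95% interval from -0.10 to 0.40. Its second probe, which lies farther along the gene, read 4.10, 4.45, 4.10 and 4.02 in wild-type pools and 4.57, 5.11, 4.49 and 4.34 in null pools. On that probe null pool 4 fell below wild-type pool 2 and the other 3 null pools were above every wild-type pool. The difference of 0.46 had a standard error of 0.18 and an adjusted p of 0.19 (limma over probes), and 0.030 with the replicate block.

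The other paralogues were nearer to 0. Rps27l, a p53 target that resembles Rps27, read 5.37, 5.63, 5.61 and 5.64 in wild-type pools and 5.24, 5.56, 5.49 and 5.61 in null pools, a difference of -0.09 with a 95% interval from -0.33 to 0.15. Its partner Rps27 differed by 0.15, with an interval from -0.15 to 0.46. Rpl36al differed by -0.02 and its X-linked partner Rpl36a by 0.14. Rpl3 and Rpl26, whose own paralogues had no tested probe among the members, each differed by 0.20, and neither passed the test. Of the 4 paralogues tested, 3 had a lower null mean and 1 had a higher one, beside 70 of 72 subunit proteins with a higher null mean.

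**Figure D2:**
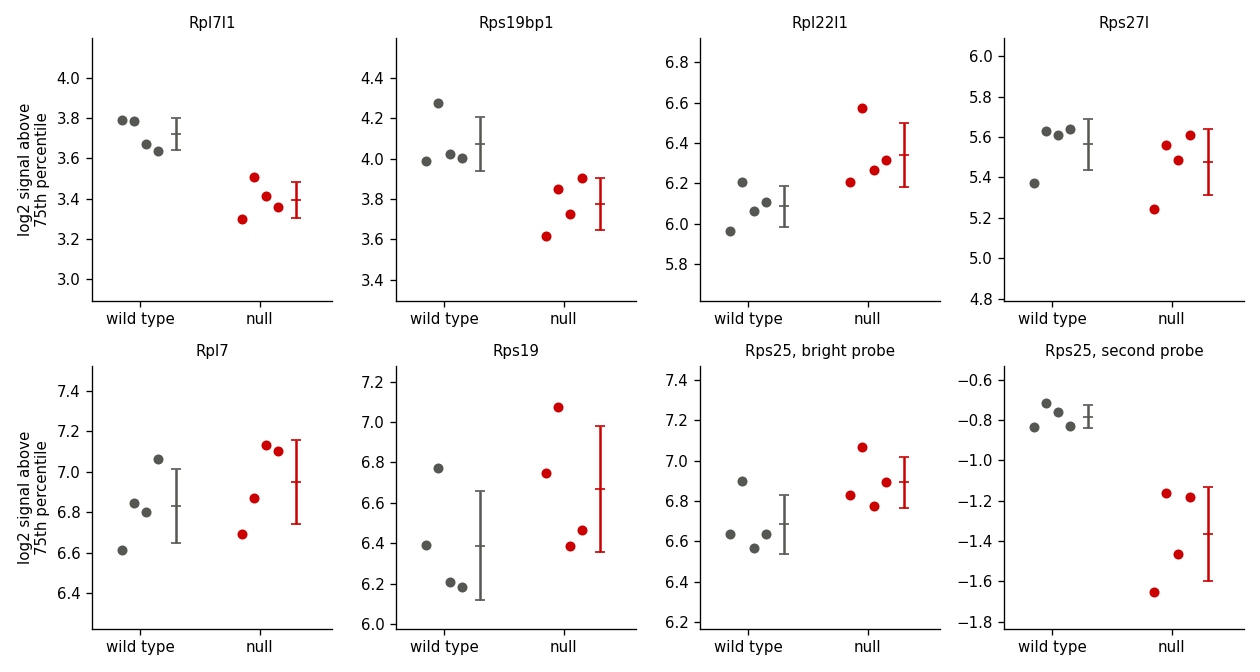
Log2 signal above the array's 75th percentile in each of 4 wild-type (grey) and 4 null (red) pools, with the mean and SD beside them, on panels of equal span. Rpl7l1, Rps19bp1 and the second Rps25 probe have all null pools below all wild-type pools, Rpl22l1 has them above, and Rps27l, Rpl7, Rps19 and the bright Rps25 probe overlap.

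Rpl21 and Rpl14 were the only subunit proteins with a lower null mean. Rpl21 read 1.92, 1.93, 2.06 and 1.65 in wild-type pools and 1.71, 1.79, 1.5 and 1.82 in null pools, and its probe had the lowest mean signal of the 77 (5309). Rpl14 read 3.68, 3.92, 3.96 and 3.77 in wild-type pools and 3.80, 3.70, 3.84 and 3.53 in null pools. Both overlapped between genotypes, with differences of -0.19 (adjusted p 0.41) and -0.11 (adjusted p 0.59) by limma.

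Members known for phenotypes in people or mice stayed in the common range. Rpl5 and Rpl11, which carry the p53 link, differed by 0.13 (95% interval -0.10 to 0.37) and 0.10 (-0.13 to 0.34). Rps14, a gene of the deleted region in a human form of myelodysplasia, differed by 0.12 (-0.18 to 0.43). Rps6, the protein that S6 kinases phosphorylate, differed by 0.10 (-0.13 to 0.33).

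Rps7 and Rps20, mutated in mice with dark skin or pigment defects, differed by 0.12 (95% interval -0.15 to 0.38) and 0.17 (-0.09 to 0.44). Rpl24, mutated in the Belly spot and tail mouse, differed by 0.08 (-0.16 to 0.32), and Rpl27a, mutated in the sooty foot ataxia mouse, by 0.13 (-0.22 to 0.48). Rpl38, mutated in the Tail short mouse with skeletal defects, read 6.97, 7.27, 6.87 and 7.20 in wild-type pools and 7.11, 7.29, 7.25 and 7.27 in null pools, a difference of 0.15 (-0.09 to 0.40). Rpl29, whose loss makes mice small, differed by 0.07 (-0.19 to 0.33). None of these had groups that did not overlap, and each interval left differences of either sign possible.

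The X-linked members did not stand out from the autosomal ones. Rps4x differed by 0.10 (95% interval -0.15 to 0.34), Rpl10 by 0.16 (-0.07 to 0.39), Rpl36a by 0.14 (-0.10 to 0.38) and Rpl39 by 0.23 (-0.05 to 0.50). None passed the test, and the pools differed in their share of male embryos, as the Y-linked levels above show.

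The probes of a gene did not always go the same way, and brightness separated them. Of 39 genes with more than 1 kept probe, 29 had all their probes on the same side of 0. Among the 109 kept probes with a mean signal of 10000 or more, 103 had a higher null mean and the median was 0.13. Among the 19 dimmer probes, 5 had a higher null mean and 14 a lower one, with a median of -0.08. Of these dimmer probes 18 are not the brightest of their gene, such as the second probes of Rps12 (-0.34), Rps15a (-0.18) and Rps13 (-0.16), whose bright probes gave 0.13, 0.15 and 0.13. A second probe of Rps24 had all null pools below all wild-type pools, at -0.23 with an adjusted p of 0.13 (limma over probes) and 0.049 with the replicate block, while the bright Rps24 probe gave 0.11.

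**Figure D3:**
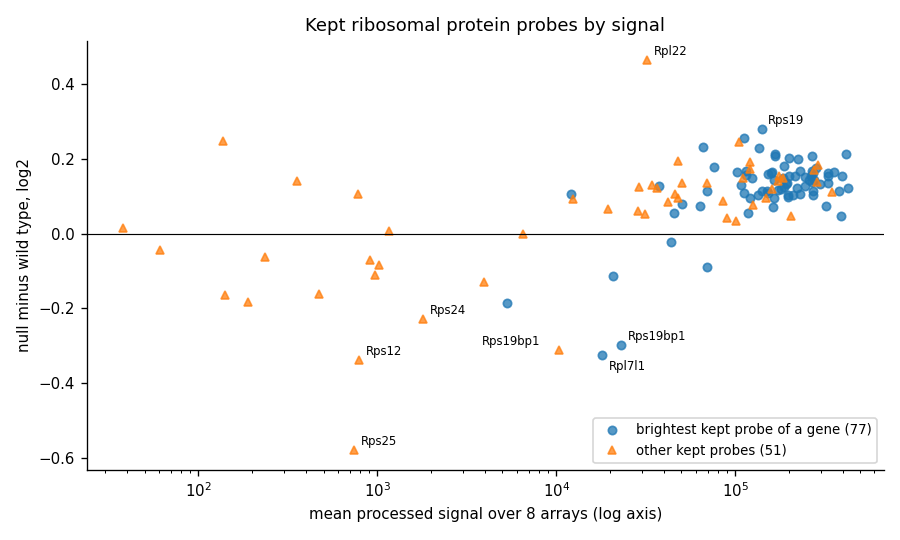
Difference between null and wild type (log2, y axis) against mean processed signal over 8 arrays (log axis) for the 128 kept member probes, with circles for the brightest kept probe of each gene and triangles for the other 51. Above a signal of 10000 nearly all points are positive, and below it 14 of 19 are negative, the lowest being the second Rps25 probe at -0.58.

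The second probe of Rps25 was the single member probe of 128 that passed the test, beside 3.46% of all kept probes. With the replicate block 7 member probes passed, beside 11.9% of all kept probes. Rps25 is a small subunit protein used in internal initiation of translation. The 2 probes are shown because they gave opposite values. Each is given by its first 30 of 60 bases as the array's design lists them, 5′ to 3′, and the capitals mark AATAAA, the polyadenylation signal, and TTTATT, its reverse complement.
Rps25 bright probe: taaggaggttccgaactataagcttattac
Rps25 second probe: ttggaaaAATAAAacTTTATTgaatcaaat
The bright probe lies at mm7 chr9:44343108-44343167 and the second at chr9:44344509-44344568, both on the plus strand. In the second probe the motifs start at bases 8 and 16. Both motifs occur in 93 of 41174 probes (0.23%) and in 1 of the 132 member probes. In RefSeq (GRCm38.p6) the annotated spans of Rps25, on the plus strand, and of Ccdc84, on the minus strand, overlap where both genes end.

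The second Rps25 probe read -0.83, -0.72, -0.76 and -0.83 for wild-type pools 1 to 4, against -1.65, -1.16, -1.46 and -1.18 for the null pools. All null pools were lower, by a difference of -0.58 with a standard error of 0.12 and an adjusted p of 0.043 over all 25555 probes (limma). The call was near the threshold: leaving out single pools gave adjusted p from 0.043 to 0.13, and it held without null pool 2 and without null pool 4 and was lost when any 1 of the other 6 pools was left out.

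The bright Rps25 probe read 6.64, 6.90, 6.57 and 6.64 in wild-type pools and 6.83, 7.07, 6.77 and 6.89 in null pools, a difference of 0.21 with a standard error of 0.10 and an adjusted p of 0.31 (limma over probes). The neighbouring genes had lower null values on their own probes: Ccdc84 differed by -0.30 (adjusted p 0.14) and Trappc4 by -0.27 (adjusted p 0.21), by limma, with no overlap between groups in either. The gene lies 13.5 Mb from the probe for Arid3b on the same chromosome. Whether the second probe reads Rps25, its neighbour or both was not tested.

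Genes that make ribosomes did not move with the proteins that compose them. The list held 34 genes for ribosome assembly and RNA polymerase I. Of these, 4 fell and 0 rose (limma, adjusted p under 0.05), beside 1.35% of all genes that fell. A lower null mean was found for 32 of 34, beside 8764 of 17099 genes, with a median of -0.20. In the pool medians all 4 null pools were lower: 0.07, 0.10, 0.11 and 0.16 for wild-type pools 1 to 4, against -0.27, -0.19, -0.04 and 0.02 for the null pools in that order. The highest null pool lay below the lowest wild-type pool.

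The 4 that fell were Bop1, a large subunit assembly factor, Bysl and Ltv1, both small subunit assembly factors, and Polr1e, a subunit of RNA polymerase I. Bop1 read 3.78, 3.85, 3.69 and 3.75 in wild-type pools and 3.30, 3.35, 3.41 and 3.52 in null pools, a fall of 0.38 with a standard error of 0.08 and a limma adjusted p of 0.038. Bysl fell by 0.43 (adjusted p 0.041), Polr1e fell by 0.46 (adjusted p 0.041) and Ltv1 fell by 0.52 (adjusted p 0.045), by limma. The nucleolar proteins Npm1, Ncl and Fbl lay near 0, at 0.06, -0.04 and -0.03. With the replicate block the number of calls in this list rose to 9, beside 5.92% of all genes called lower in that fit. With the slide block it was 8, beside 3.3%. It was 1 with the Y-linked covariate, beside 0.497%, and 2 in the deposited table, beside 146 of 16984 genes. The number was 0 without null pools 1, 2 or 3 or any wild-type pool. It was also 0 with the arrays centred on their medians, left unshifted, corrected by normexp or tested without a filter, and within either slide alone. In the fits with 0 calls the list median stayed between -0.12 and -0.29, with 27 to 33 of 34 lower. Calls over all genes dropped too in those fits, to 0 with normexp and on either slide.

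The gap between the 2 groups of genes within a pool does not depend on a constant shift between arrays. A difference between arrays that varies with brightness would not cancel, and its part was not tested. The median of the 72 subunit proteins minus that of the 34 assembly genes was -0.24, 0.008, -0.31 and -0.16 for wild-type pools 1 to 4. For the null pools, in the same order, the values were 0.17, 0.41, 0.08 and 0.07. All null pools were above all wild-type pools, by 0.36 on average, with the gap between wild-type pool 2 and null pool 4 the narrowest. It shows unequal change and not which of the 2 groups changed. In whole embryos, fewer cells of a type and less RNA per cell cannot be told apart.

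**Figure D4:**
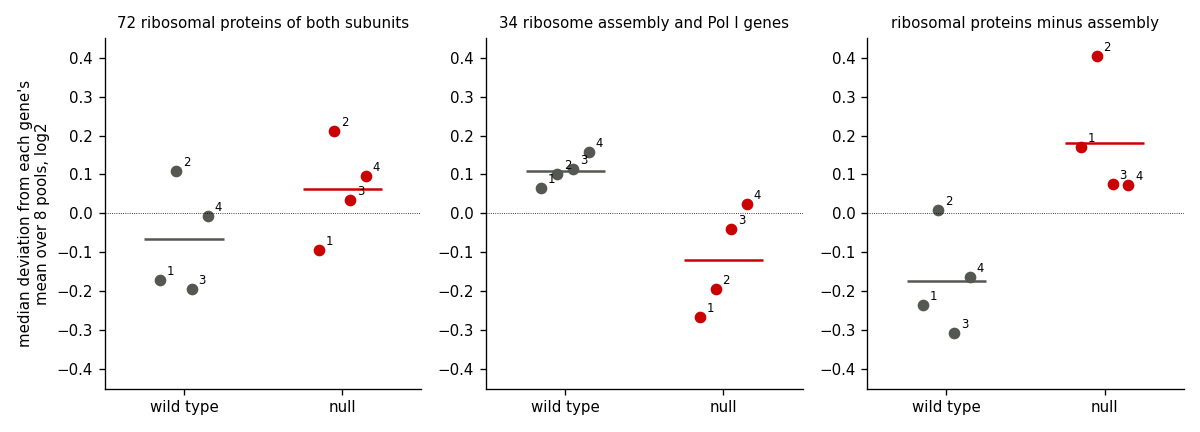
Median deviation (log2) of each pool from the mean over 8 pools, for the 72 ribosomal proteins of both subunits, for 34 assembly and RNA polymerase I genes, and for the first minus the second. Points are pools with their number and lines are group means: the groups overlap in the first panel and separate in the other two.

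A pair of marker sums differed between the same pools without overlap. The summed level of the 5 heart markers, in multiples of the 75th percentile, was 119 to 127 in wild-type and 136 to 157 in null pools, and that of the 4 neural tube markers was 17.4 to 19.2 in wild-type and 12.8 to 16.2 in null pools, with 0 genes called in either list. Groups without overlap were found for 8.08% of single genes as higher and 8.06% as lower in null pools. A sum weighs its brightest gene most. The erythroid sum was 264 to 420 in wild-type and 217 to 377 in null pools, so it overlapped. The sums for yolk sac endoderm, placenta and decidua, mesoderm and tailbud, neural crest, endothelium and sex overlapped too. The sex sum adds Xist, a transcript of female cells, to Y-linked genes, so it cannot show the share of male embryos. Of the erythroid list 1 gene (Klf1) was called lower, beside 1.35% of all genes. Of the placenta and decidua list 1 gene (Dcn) was called higher, beside 2.85% of all genes. The part of these markers in the ribosomal results was not tested.

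Translation factors and other transcripts listed for a TOP tract lay with the ribosomal proteins. Their own tracts were not looked up here. Of 15 such genes, 12 had a higher null mean, beside 48.7% of all genes, and the median was 0.14. In this list 1 rose and 0 fell, beside 2.85% of all genes that rose. Eif4a2, an RNA helicase of the initiation complex, rose by 0.76 with an adjusted p of 0.024 (limma). Eef2, the elongation factor that moves the ribosome along, differed by 0.29 with no overlap and an adjusted p of 0.18 (limma).

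The mitochondrial ribosome did not share the sign of the cytosolic one. Of 78 mitochondrial ribosomal protein genes 0 were called, and 14 had an unadjusted p under 0.05, a share below the 20.7% of all genes. A lower null mean was found for 64, beside 8764 of 17099 genes, with a median of -0.12. With the replicate block 10 passed as lower, beside 5.92% of all genes, and with the slide block 1, beside 3.3%. In the mTORC1 list 2 of 16 genes rose, the inhibitors Ddit4 and Sesn2, by 1.98 and 0.93 (adjusted p 0.0029 and 0.0066, limma), beside 2.85% of all genes that rose, with a list median of -0.10. In the list of p53, its regulators and its targets 2 of 12 rose, beside the same 2.85% of all genes. These were Sesn2 again and Pmaip1, by 0.69 (adjusted p 0.036, limma), and the list median was 0.03.

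**Figure D5:**
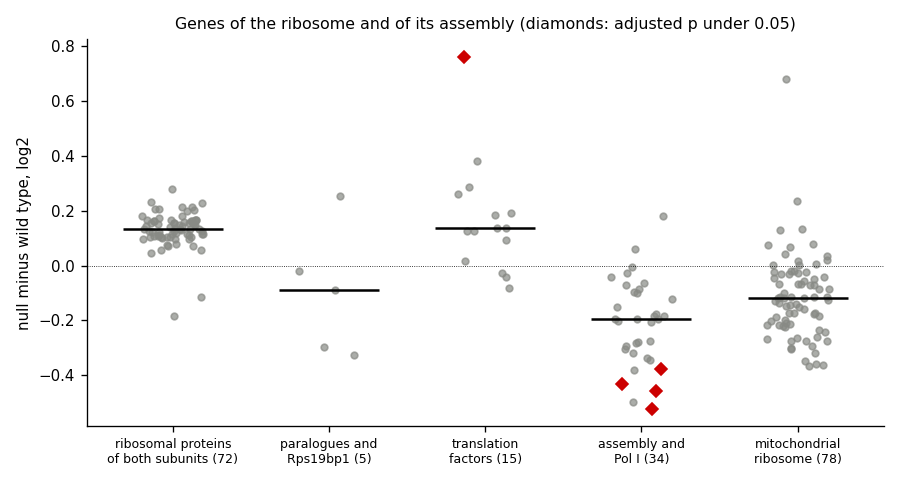
Difference between null and wild type (log2, y axis) for single genes of 5 groups, with the median as a bar and diamonds for genes at an adjusted p under 0.05 over all genes (limma). The subunit proteins cluster around 0.13 with no diamond, and the assembly genes spread around -0.20 with 4.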

How the data were processed

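RNA of 8 pools was measured on one-colour Agilent arrays. The authors deposited scanner files with processed intensity (Feature Extraction 9.5.3.1, background subtracted, per the file headers) and a table of log2 values, whose normalisation the sources used here do not state. Probe coordinates are mm7, per the file headers. Control and outlier spots were left out and spots of a probe averaged. Intensities were taken as log2 minus each array's 75th percentile. The brightest kept probe stood for a gene. The test was limma's (version 3.58.1, R 4.3.3, lmFit and eBayes), with Benjamini-Hochberg adjustment over all genes or probes and a threshold of 0.05, and the code was tested on simulated data. The number of arrays limits the precision.

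Named genes were called members, the 6 largest rises and 6 largest falls without overlap, paralogues with partners, X-linked members and members known for phenotypes. Rps24, Rps25, Rps12, Rps13, Rps15a, Rpl14, Rpl21 and Rpl30 were added after their values were seen, as were the neighbours of Rps25, Rpl34, and those shown for their start sequence. Members and lists were chosen with earlier results of these data known. Same-numbered pools deviated together (correlations 0.56, 0.64, 0.52 and 0.43) and share a slide, so the replicate block took the numbers as pairs. The main fit had no block and did not use the pairs. A further list of ribosomal proteins with other names is not reported here.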

Additional observations from a re-analysis of the deposited data

Results flagged for a closer look

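In 6 of 56 sets of 4 pools, 1 pool lay far from the other 3 (gap over range above 0.829); chance alone gives about 1 in 20. Null pool 2 was the high pool for Rpl3 (7.62), Rpl26 (7.46) and Rpl5 (7.86). Null pool 1 was the low pool for Rps27 (7.25). Wild-type pool 2 was the high pool for Rps19bp1 (4.28), and wild-type pool 1 the low pool for Rps27l (5.37). Null pool 2 also had the highest member median, and the cause was not tested.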

How the results depend on the processing

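The median member difference was positive in all 22 alternatives. Leaving out single pools gave medians from 0.08 to 0.19, and the range over all alternatives was 0.02 (Y-linked covariate) to 0.21 (normexp). No member was called higher in any alternative except the replicate block, with 3 (Rps19, Rps25 and Rpl22l1), beside 7.78% of all genes in that fit. Calls lower in null were 1 with the replicate block, the slide block and the filter on all arrays (each Rpl7l1) and 1 with the Y-linked covariate (Rps19bp1). Paired by replicate number, 7 member probes were called, and 2 with the slide block; the count was 0 for median centring, unshifted arrays, normexp, no filter, slide 1 only and slide 2 only, and 0 to 1 without single pools. Aligning arrays on bright genes outside the members was chosen after seeing the data, and gave a member median of 0.12. Causes were not tested. Signals of dim probes limit the second-probe values.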
